A study of Rattus norvegicus with 20 samples.

Results

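The genes described here encode actins, proteins that bind or regulate actin filaments, and known targets of the transcription factor SRF, together with SRF itself, lamin A/C and vimentin. They were chosen as a list of 56 symbols by known function, of which 53 were found in the count table of 17337 symbols. Of these 53, 48 held enough counts to enter the test, which covered 8320 genes. Cnn2, Mkl1 and Mkl2 were not matched and are not analysed here. Actg2, Fhl2 and Myh9 held 52, 21 and 6 counts over all libraries and were not tested, and Myl6 and Pfn2 were listed at 0. Whether such counts mean that the transcripts were absent or that their reads were not counted was not tested.

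Transcripts were counted from their 3′ ends (QuantSeq, which makes a single fragment per polyadenylated transcript) in primary alveolar epithelial cells of Sprague-Dawley rats, isolated as type II cells. During 4 days on silastic membranes coated with fibronectin they took on type I-like features. The libraries formed 4 groups of 5, and each library pooled 4 monolayers of 1 animal. The unstretched group NS received 0.01% DMSO for 24 h, and the stretched group S received 0.01% DMSO for 18 h and was then stretched for 6 h, biaxially, 15 times per min, by a 25% change in surface area. NS_PI and S_PI were treated likewise with 1 µM GSK2606414, which blocks the kinase PERK, with no DMSO content recorded. For unstretched cells the treatment protocol puts the inhibitor at 24 h, whereas the series design names 18 h. S vs NS asked what stretch changes with vehicle, S_PI vs NS_PI what it changes with the inhibitor, and the interaction whether these changes differ. The labels give neither the age nor the sex of the animals.

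Actin monomers assemble into filaments that, with myosin II, carry tension through the cell cortex, its junctions and its focal adhesions. In alveolar epithelium this network bears part of the load of breathing and holds the junctions that keep fluid out of the air space. It also feeds back on transcription: free actin monomers bind the SRF cofactors MRTF-A and MRTF-B, and when monomers are used up by assembly these cofactors enter the nucleus and act with SRF. SRF binds the CArG box, which reads CC, then 6 letters that are each A or T, then GG. Many actin, tropomyosin, calponin and adhesion genes, and Srf itself, are known targets of this route, while immediate-early genes such as Fos are driven by SRF with the ternary complex factors.

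Promoter windows were searched for the CArG box, which reads the same on both strands. Of the 48 tested genes, 42 had a window of 300 bases (250 before to 50 after the transcription start) in RefSeq on build GRCr8. The other 6, Actb, Tagln, Myl9, Actn4, Lasp1 and Capg, had no window and were not searched. A CArG box lay in the windows of 5 of these 42 genes (11.9%), against 1.77% of the 27457 symbols with a window of the same length in the whole table. Known SRF targets were part of how the list was chosen, so these shares cannot serve as a test of it. The 5 genes with a box were Srf, Acta1, Actg1, Lima1 and Fhl1. Their windows are shown because the genes that hold a box did not all move alike under stretch. The window of Acta2 is shown beside them because its boxes each have 1 letter that departs from the motif between CC and GG. Capitals mark the boxes, and each window reads 5′ to 3′ on the gene's own strand.
Srf, GRCr8 chr9:21923826-21924125, plus strand: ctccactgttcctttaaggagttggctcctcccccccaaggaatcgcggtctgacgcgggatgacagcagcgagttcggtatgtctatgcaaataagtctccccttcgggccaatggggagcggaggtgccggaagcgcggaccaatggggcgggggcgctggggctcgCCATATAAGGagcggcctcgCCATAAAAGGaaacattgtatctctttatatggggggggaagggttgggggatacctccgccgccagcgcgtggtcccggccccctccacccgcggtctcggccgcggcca
Acta1, GRCr8 chr19:68784145-68784444, minus strand: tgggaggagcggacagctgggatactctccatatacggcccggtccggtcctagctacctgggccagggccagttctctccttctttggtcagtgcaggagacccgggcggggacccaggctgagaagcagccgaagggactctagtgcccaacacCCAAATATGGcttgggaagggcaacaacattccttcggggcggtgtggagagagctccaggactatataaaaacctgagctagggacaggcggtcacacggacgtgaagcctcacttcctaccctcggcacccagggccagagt
Actg1, GRCr8 chr10:106120902-106121201, minus strand: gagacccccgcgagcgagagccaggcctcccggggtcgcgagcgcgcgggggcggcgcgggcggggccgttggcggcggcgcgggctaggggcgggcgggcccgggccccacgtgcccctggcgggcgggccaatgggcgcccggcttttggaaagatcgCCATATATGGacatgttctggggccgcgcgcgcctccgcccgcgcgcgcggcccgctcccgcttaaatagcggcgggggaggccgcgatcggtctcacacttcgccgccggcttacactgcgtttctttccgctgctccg
Lima1, GRCr8 chr7:132880294-132880593, minus strand: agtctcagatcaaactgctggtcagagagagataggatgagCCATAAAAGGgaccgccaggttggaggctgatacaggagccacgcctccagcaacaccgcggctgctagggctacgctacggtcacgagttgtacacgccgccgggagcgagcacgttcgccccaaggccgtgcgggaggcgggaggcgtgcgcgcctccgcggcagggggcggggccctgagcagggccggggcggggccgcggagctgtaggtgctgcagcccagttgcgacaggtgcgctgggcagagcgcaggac
Fhl1, GRCr8 chrX:139638246-139638545, plus strand: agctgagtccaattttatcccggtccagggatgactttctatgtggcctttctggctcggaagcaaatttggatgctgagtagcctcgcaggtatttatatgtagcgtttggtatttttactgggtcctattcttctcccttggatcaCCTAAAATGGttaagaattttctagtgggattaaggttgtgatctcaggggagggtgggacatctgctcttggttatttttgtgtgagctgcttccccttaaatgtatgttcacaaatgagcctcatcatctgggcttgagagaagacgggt
Acta2, GRCr8 chr1:241172454-241172753, minus strand: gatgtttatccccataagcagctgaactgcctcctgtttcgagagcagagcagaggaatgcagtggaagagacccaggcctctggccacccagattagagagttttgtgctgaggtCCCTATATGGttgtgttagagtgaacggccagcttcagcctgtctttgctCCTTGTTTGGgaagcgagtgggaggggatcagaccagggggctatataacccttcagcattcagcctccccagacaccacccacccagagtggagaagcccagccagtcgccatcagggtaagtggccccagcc
The Srf window holds 2 boxes, which begin 81 and 61 bases before the start. The boxes of Acta1, Actg1 and Fhl1 begin 94, 90 and 102 bases before it, and that of Lima1 lies farther out, at 209. Of the genes called higher or lower in a stretch comparison below, 17 had a window. An exact box lay in 4 of these (Srf, Acta1, Lima1 and Fhl1), against 1 of the 25 genes with a window that were not called (Actg1). Acta2, Tpm3 and Zyx held a box with 1 such mismatch but no exact one, and 8.10% of all windows held a box with 1 mismatch. A match is a description of the letters and not a site of binding. The genome build of these windows is newer than rn6, the build named for the counts, so no position here was joined to a read.

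Libraries held 999209 to 3131541 gene counts, and 3 counts, used here as a floor, equal 1.07 to 3.05 TMM-scaled CPM, the unit of all levels given here. This floor covers counting error only. Records that aligned to several places made up 35.5 to 57.7% of each library, so levels of genes with near-identical copies, such as the cytoplasmic actins, are uncertain. Type I markers were present in every library, at 603 to 2972 CPM for Pdpn, 61.8 to 1263 CPM for Ager and 15.7 to 169 CPM for Hopx. The surfactant genes Sftpc and Sftpb did not exceed 58.2 and 22.2 CPM. Markers of other cell types were also detected, with 2201 to 11630 CPM of the collagen gene Col1a1, 0 to 5.34 CPM of its partner Col1a2 and 34.0 to 150 CPM of the leukocyte gene Ptprc, while the endothelial gene Cdh5 was at 0 in all 20 libraries. The labels do not say whether the numbers 1 to 5 name animals. They were read so because the deposited comparison table is named as controlling for rat, and each of the 20 libraries correlated best with another library of its own number.

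In unstretched cells with vehicle, the most abundant listed transcripts were those of Csrp1, a LIM protein that bundles filaments (mean 3994 CPM), and Tpm1, a tropomyosin that winds along the filament (3415 CPM). Actb, the main cytoplasmic actin, followed at 1893 CPM, Vim, the intermediate filament protein vimentin, at 1886 CPM and Myl12a, a myosin regulatory light chain, at 1866 CPM. CPM values were compared between genes without division by length, since the protocol makes a single fragment per transcript. This ranking holds only for the counts as deposited, in which Myl6 and Pfn2 stood at 0. Animals differed most in Sgcd, where the highest NS library was 35.7 times the lowest, and in Fhl1 and Acta1, each 12.5 times. They differed least in Tagln2 (1.13 times), Capza1 (1.20 times), Lmna (1.25 times) and Tpm1 (1.31 times).

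Most of the listed genes did not pass the test in either stretch comparison. In S vs NS, 13 of the 48 genes fell (27.1%) and 3 rose (6.25%), against 12.4% and 12.5% of all genes tested and 24.9% in either direction. Those that fell were Srf, Acta1, Tagln, Tpm1, Cnn1, Cald1, Lima1, Myl9, Vcl, Fhl1, Csrp1, Cfl2 and Sgcd, and those that rose were Flna, Capg and Lmna. In S_PI vs NS_PI, 11 of 48 fell (22.9%) and 4 rose (8.33%), against 15.3% and 15.2% of all genes tested. The 15 genes are 31.25% of the 48, near the 30.5% of all genes called in either direction. The median log2 change over the 48 genes was 0.02 in each comparison, against -0.01 and -0.02 over all genes. The other 32 and 33 genes had log2 changes of -0.62 to 0.52 and of -1.15 to 0.46. Scaling by library size alone shifted the median of all genes by -0.11 in S vs NS and by -0.10 in S_PI vs NS_PI on the log2 scale. The split of all called genes then moved from 1044 higher and 1031 lower to 722 and 1425 in S vs NS, and from 1263 and 1271 to 957 and 1677 in S_PI vs NS_PI, and upper-quartile scaling gave 854 and 1233, and 1030 and 1612. For the listed genes these scalings gave 2 or 3 higher and 13 or 14 lower in S vs NS, and 3 higher and 14 lower in S_PI vs NS_PI. When the animal was left out of the model, 4 of the 16 calls with vehicle (Srf, Tagln, Tpm1 and Lmna) and 2 of the 15 with inhibitor (Tpm1 and Lmna) held. When only the compared groups were fitted, with the animal in the model, Srf, Cald1, Lima1, Flna, Vcl, Fhl1, Csrp1 and Capg lost their call with vehicle (adjusted p = 0.0595 to 0.11), and Myl12b, Csrp1, Arpc2 and Sgcd lost it with inhibitor (adjusted p = 0.0518 to 0.115). Log2 changes below are edgeR estimates ± SE from the 1 fit to all 20 libraries of 5 animals, with p-values adjusted over all 8320 genes. Library values are in the order of animals 1 to 5.

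**Figure D1:**
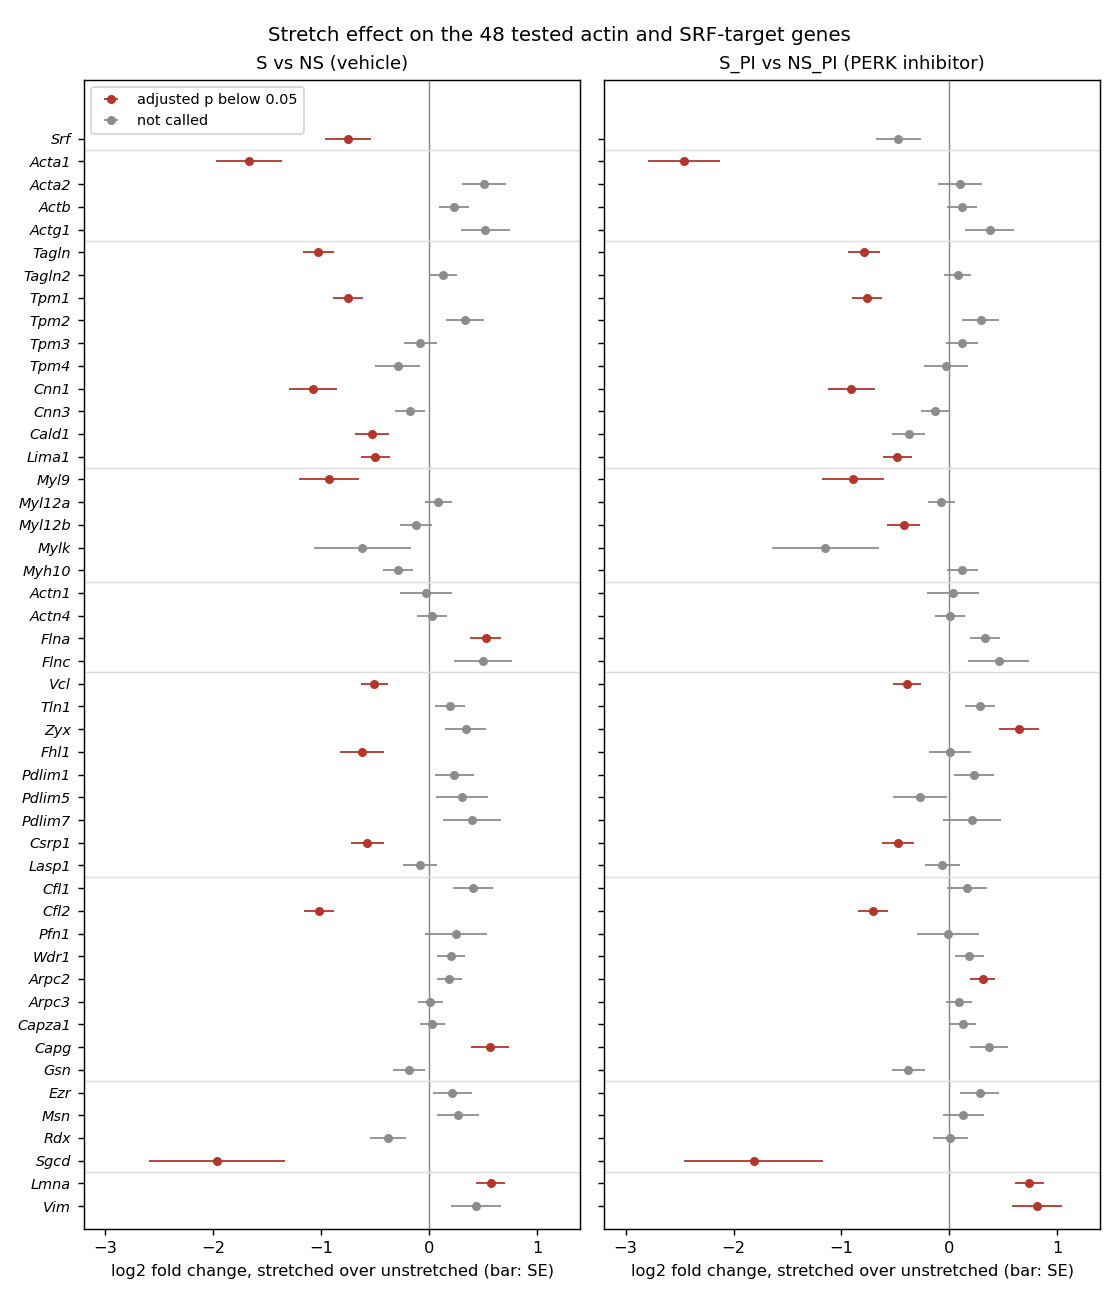
Log2 fold change (x axis, stretched over unstretched, bar: SE, n = 5 animals) of the 48 tested genes grouped by role, with vehicle (left) and with the PERK inhibitor (right); red marks an adjusted p below 0.05. Acta1 has the lowest estimate of the actins in both panels, at -1.67 and -2.46, and Lmna lies to the right of 0 in both.

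Srf, which encodes the transcription factor itself, stood at 121, 113, 127, 193 and 214 CPM in NS and at 81.0, 111, 121, 67.1 and 72.1 CPM in S. It was lower in 5 of 5 animals, but animals 2 and 3 moved by only -0.03 and -0.08 on the log2 scale, animal 1 by -0.58, and animals 4 and 5 by -1.51 and -1.56. The groups overlapped. Srf fell by 0.75 ± 0.21 on the log2 scale (adjusted p = 0.0135), but not when animal 4 (adjusted p = 0.081) or animal 5 (adjusted p = 0.136) was left out. With inhibitor the values were 158, 133, 100, 150 and 131 CPM in NS_PI and 88.8, 116, 113, 70.1 and 99.5 CPM in S_PI, lower in 4 of 5 animals. That change, -0.47 ± 0.21, did not pass the test (adjusted p = 0.0918), but did with upper-quartile scaling (adjusted p = 0.0437) and with library size alone (adjusted p = 0.0308).

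Among the actins, only Acta1 was called. Acta1, the skeletal muscle actin and a classic SRF target, stood at 455, 167, 105, 67.7 and 36.3 CPM in NS and at 298, 17.8, 29.0, 11.2 and 17.4 CPM in S. It was lower in 5 of 5 animals although the groups overlapped, because animal 1 was far above the others in both. Acta1 fell by 1.67 ± 0.30 on the log2 scale, a 3.18-fold decrease (adjusted p = 0.000575). With inhibitor it went from 393, 89.2, 97.6, 43.7 and 38.6 CPM to 42.4, 23.2, 25.7, 6.86 and 5.45 CPM, a 5.51-fold decrease (log2 change -2.46 ± 0.34, adjusted p = 2.26e-05). Every animal was again lower. The call held without each animal in turn, and was lost only when the animal was left out of the model (adjusted p = 0.447 and 0.0619).

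Acta2, the smooth muscle actin, stood at 815, 487, 827, 829 and 1022 CPM in NS and at 2426, 565, 598, 1646 and 1080 CPM in S, higher in animals 1, 2, 4 and 5 and lower in animal 3. Its log2 change of 0.51 ± 0.20 did not pass the test (adjusted p = 0.07), but did with no filter on low counts (adjusted p = 0.0381), with DESeq2 (adjusted p = 0.049) and without animal 3 (adjusted p = 0.0206). With inhibitor it stood at 1089, 567, 855, 1291 and 1464 CPM in NS_PI and at 1448, 653, 825, 1488 and 1256 CPM in S_PI (log2 change 0.10 ± 0.20, adjusted p = 0.746). Acta1 and Acta2 thus had log2 changes of opposite sign in S vs NS. The cytoplasmic actins build the cortex of nearly every cell. Actb stood at 1738, 1506, 2135, 2466 and 1623 CPM in NS, at 1888, 1962, 2053, 3070 and 2171 CPM in S, at 2017, 1857, 1804, 2492 and 2734 CPM in NS_PI and at 1792, 2504, 2349, 2584 and 2530 CPM in S_PI. The 4 groups of Actb values overlapped, with log2 changes of 0.23 ± 0.14 (adjusted p = 0.245) and 0.11 ± 0.14 (adjusted p = 0.566). Actg1 stood at 80.3, 31.6, 30.4, 45.9 and 52.6 CPM in NS, at 186, 27.5, 44.5, 46.8 and 83.1 CPM in S, at 54.4, 25.8, 46.4, 49.7 and 45.3 CPM in NS_PI and at 143, 37.2, 38.5, 56.4 and 47.0 CPM in S_PI. Animal 1 was the highest stretched library in both comparisons, and the log2 changes were 0.52 ± 0.22 (adjusted p = 0.0913) and 0.37 ± 0.23 (adjusted p = 0.219). Actg1 and Acta1 both hold an exact CArG box in the windows printed above, and only Acta1 was called.

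**Figure D2:**
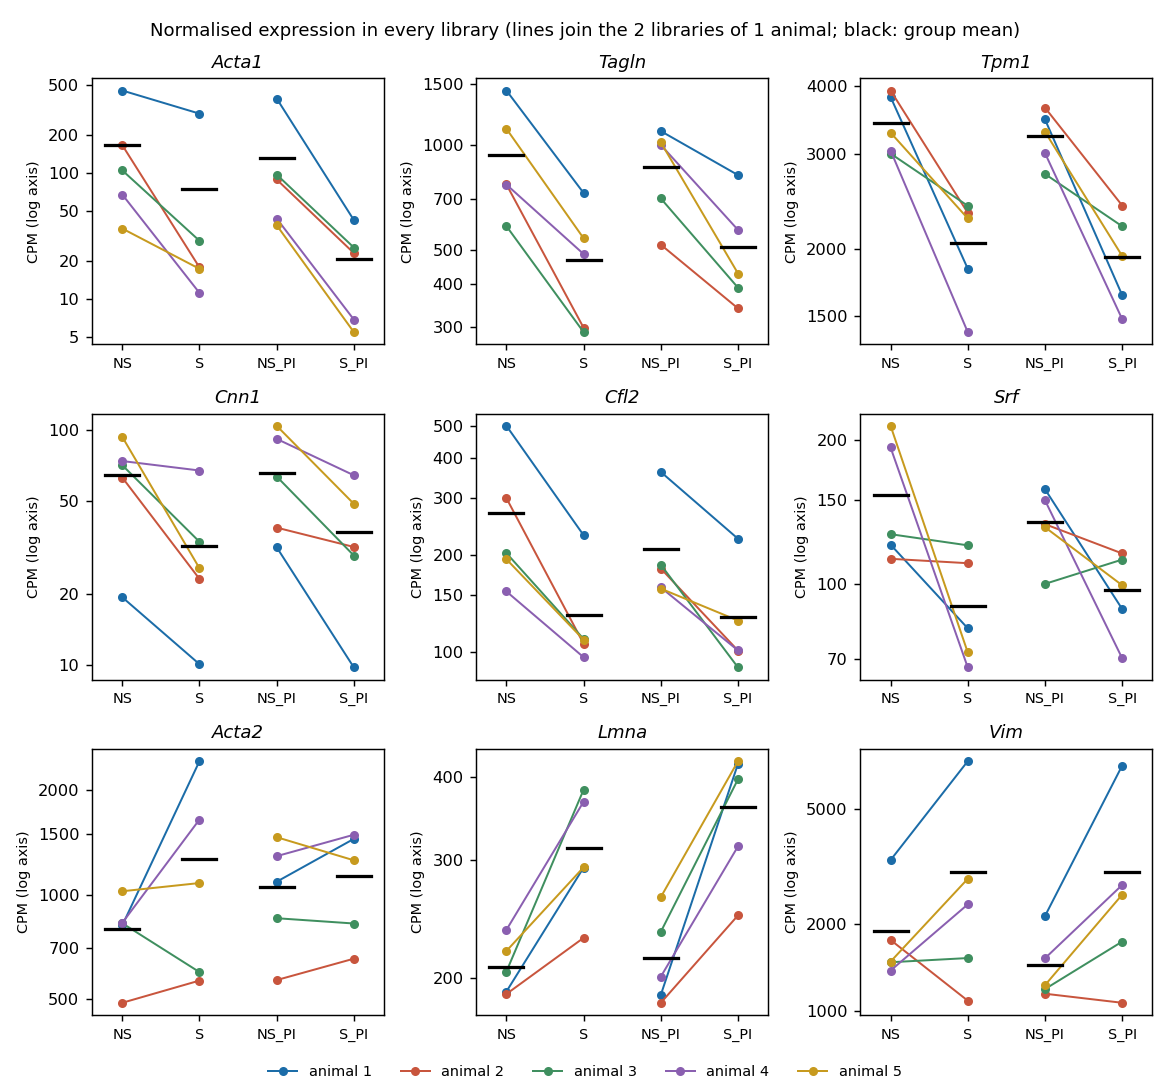
Normalised expression (CPM, log axis) of 9 genes in every library; lines join the 2 libraries of 1 animal and black bars are group means of 5. Acta1, Tagln, Tpm1, Cnn1 and Cfl2 fall in every animal in both comparisons, Lmna rises in every animal, and Srf, Acta2 and Vim differ between animals.

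Of the 10 tested proteins that lie along or across the filament, 5 fell in S vs NS and 4 in S_PI vs NS_PI, and none rose. Over all genes tested, 12.4% fell and 12.5% rose in S vs NS, and 15.3% fell and 15.2% rose in S_PI vs NS_PI. Tagln encodes transgelin (SM22), a calponin-family protein of smooth muscle. It stood at 1435, 771, 585, 770 and 1114 CPM in NS and at 728, 298, 290, 486 and 540 CPM in S. All 5 animals were lower, and Tagln fell by 1.03 ± 0.15 on the log2 scale (adjusted p = 6.8e-05). With inhibitor it went from 1097, 517, 702, 1001 and 1018 CPM to 820, 339, 389, 570 and 427 CPM, again lower in all 5, by 0.79 ± 0.15 on the log2 scale (adjusted p = 0.00046). Tpm1 was the only gene of the 48 whose stretched and unstretched libraries did not overlap, against 7.34% of all genes tested in S vs NS and 13.8% in S_PI vs NS_PI. It stood at 3822, 3928, 3002, 3041 and 3282 CPM in NS against 1836, 2331, 2402, 1401 and 2276 CPM in S, and at 3473, 3651, 2752, 3008 and 3294 CPM in NS_PI against 1641, 2405, 2201, 1481 and 1939 CPM in S_PI. Its log2 changes were -0.75 ± 0.14 (adjusted p = 0.00067) and -0.76 ± 0.14 (adjusted p = 0.000396), a 1.68-fold and a 1.69-fold decrease.

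Cnn1 encodes calponin 1, which damps actin-activated myosin in smooth muscle. It stood at 19.4, 62.7, 70.7, 73.6 and 93.3 CPM in NS and at 10.1, 23.2, 33.4, 67.1 and 25.8 CPM in S, and at 31.6, 38.3, 63.3, 91.5 and 104 CPM in NS_PI and at 9.74, 31.7, 29.2, 64.0 and 48.4 CPM in S_PI. It was lower in all 5 animals each time, with overlap of the groups and little change in animal 4 with vehicle. Cnn1 fell by 1.08 ± 0.22 (adjusted p = 0.00155) and by 0.91 ± 0.22 (adjusted p = 0.00369) on the log2 scale. Caldesmon, encoded by Cald1, tethers myosin to thin filaments, and it fell by 0.53 ± 0.16 in S vs NS (adjusted p = 0.0177), a call lost without animal 2 or 4 (adjusted p = 0.103 and 0.0965). With inhibitor Cald1 changed by -0.38 ± 0.16 (adjusted p = 0.0709). Lima1, or EPLIN, which bundles filaments and links them to cadherin junctions, fell by 0.50 ± 0.13 (adjusted p = 0.0101) and by 0.48 ± 0.13 (adjusted p = 0.00936). The first call was lost without animal 2, 3 or 5 (adjusted p = 0.0703 to 0.0768) and the second without animal 3 (adjusted p = 0.0553). The broadly expressed relatives Tagln2, Tpm3, Tpm4 and Cnn3, and the muscle-type tropomyosin Tpm2, were not called in either comparison.

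Of 5 tested myosin II genes, the regulatory light chain gene Myl9 was lower in both comparisons. Myl9 stood at 68.3, 28.6, 16.1, 29.5 and 32.5 CPM in NS and at 52.8, 4.28, 8.03, 19.3 and 19.3 CPM in S, and at 34.4, 17.9, 20.6, 40.9 and 42.3 CPM in NS_PI and at 29.2, 8.54, 10.5, 20.6 and 19.8 CPM in S_PI. Each animal was lower in each comparison. The log2 changes were -0.93 ± 0.28 (adjusted p = 0.0194) and -0.89 ± 0.29 (adjusted p = 0.0228). The first was -0.57 and not called without animal 2 (adjusted p = 0.138), nor without animal 3 or 5 (adjusted p = 0.0606 and 0.0551). The second was not called without animal 3, 4 or 5 (adjusted p = 0.0739 to 0.0944). Myl12b, a non-muscle light chain, was called only with inhibitor, where it fell by 0.42 ± 0.15 (adjusted p = 0.0371, and 0.0924 to 0.185 without animal 3, 4 or 5). Myl12a, the kinase gene Mylk and the heavy chain gene Myh10 were not called. The estimates for Mylk, -0.62 ± 0.45 and -1.15 ± 0.50, had wide errors.

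Among 4 crosslinkers, Flna was called once. Flna encodes filamin A, which joins filaments into a network and ties it to integrins. It stood at 747, 680, 944, 1276 and 1333 CPM in NS and at 1824, 981, 1080, 1720 and 1488 CPM in S. All 5 animals were higher, though the groups overlapped, and Flna rose by 0.52 ± 0.14 (adjusted p = 0.0103, or 0.0867 with only the compared groups fitted). With inhibitor it stood at 905, 679, 791, 1282 and 1298 CPM in NS_PI and at 1183, 942, 1162, 1403 and 1394 CPM in S_PI, where its log2 change of 0.33 ± 0.14 did not pass the test (adjusted p = 0.0797). The α-actinin genes Actn1 and Actn4 and the muscle filamin gene Flnc were not called.

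Of 9 tested adhesion and LIM proteins, 3 fell and none rose in S vs NS, and 2 fell and 1 rose in S_PI vs NS_PI. The shares over all genes tested were 12.4% lower and 12.5% higher in S vs NS, and 15.3% lower and 15.2% higher in S_PI vs NS_PI. Vcl encodes vinculin, which binds talin and actin at adhesions under tension, and it fell by 0.51 ± 0.13 (adjusted p = 0.00659, or 0.0663 with only the compared groups fitted) and by 0.39 ± 0.13 (adjusted p = 0.0225), the latter not called without animal 2, 4 or 5 (adjusted p = 0.0899 to 0.109). Csrp1, the most abundant of the listed transcripts, fell by 0.57 ± 0.15 (adjusted p = 0.00982) and by 0.48 ± 0.15 (adjusted p = 0.022). These calls were lost without animal 5 in S vs NS (adjusted p = 0.0509) and without animal 1, 4 or 5 in S_PI vs NS_PI (adjusted p = 0.0552 to 0.091). Zyxin, encoded by Zyx, is recruited to stretched filaments. Zyx stood at 103, 85.4, 74.4, 94.8 and 131 CPM in NS, at 213, 78.2, 81.6, 128 and 143 CPM in S, at 70.7, 62.9, 80.7, 96.6 and 110 CPM in NS_PI and at 213, 88.5, 132, 106 and 135 CPM in S_PI. It was higher in 4 animals with vehicle and in all 5 with inhibitor, most so in animal 1. The log2 change was 0.34 ± 0.19 (adjusted p = 0.195) with vehicle, and with inhibitor Zyx rose by 0.65 ± 0.19 (adjusted p = 0.0134).

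Fhl1, a LIM-only protein of muscle, was called only with vehicle. Fhl1 stood at 81.2, 34.0, 21.1, 6.48 and 10.3 CPM in NS and at 38.2, 23.6, 16.1, 6.10 and 8.37 CPM in S, lower in all 5 animals, and at 47.5, 31.7, 14.2, 3.25 and 10.4 CPM in NS_PI and at 38.4, 29.3, 21.0, 5.34 and 7.50 CPM in S_PI, lower in animals 1, 2 and 5 and higher in animals 3 and 4. Fhl1 fell by 0.62 ± 0.20 in S vs NS (adjusted p = 0.0278) and had a log2 change of 0.00 ± 0.20 with inhibitor (adjusted p = 0.991). The call was lost with DESeq2 (adjusted p = 0.051) and without animal 1, 2, 3 or 5 (adjusted p = 0.0538 to 0.219), and without animal 1 the log2 change was -0.40. Tln1, the 3 Pdlim genes and Lasp1 were not called.

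Of 9 tested genes for filament assembly and turnover, Cfl2 moved most. Cfl2, the muscle-type cofilin that severs filaments, stood at 502, 300, 203, 154 and 194 CPM in NS and at 230, 106, 110, 96.6 and 109 CPM in S, and at 362, 182, 187, 159 and 157 CPM in NS_PI and at 225, 101, 89.8, 101 and 125 CPM in S_PI. All 5 animals were lower in each comparison, and the groups overlapped only through animal 1, whose stretched libraries lay above most unstretched ones of the other animals. Cfl2 fell by 1.02 ± 0.14 (adjusted p = 4.2e-05) and by 0.71 ± 0.14 (adjusted p = 0.000718). Capg, which caps the fast-growing filament end, rose in S vs NS by 0.56 ± 0.18 (adjusted p = 0.0254). That estimate was 0.30 and not called without animal 1 (adjusted p = 0.0822), and not called with library size alone (adjusted p = 0.0574). With inhibitor Capg had a log2 change of 0.37 ± 0.18 (adjusted p = 0.124). Arpc2, a core subunit of the branching Arp2/3 complex, rose with inhibitor by 0.31 ± 0.12 (adjusted p = 0.0486), but not under upper-quartile scaling, library size alone, another filter or without animal 1, 3, 4 or 5 (adjusted p = 0.0524 to 0.206). With vehicle its log2 change was 0.19 ± 0.12 (adjusted p = 0.253). Cfl1, Pfn1, Wdr1, Arpc3, Capza1 and Gsn were not called.

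Among membrane linkers, the ERM genes Ezr, Msn and Rdx were not called, and Sgcd was. Sgcd encodes δ-sarcoglycan of the muscle dystrophin complex. It stood at 96.9, 28.6, 34.7, 4.71 and 2.71 CPM in NS and at 6.54, 16.1, 4.33, 1.02 and 5.79 CPM in S, and at 148, 10.8, 21.1, 4.18 and 5.20 CPM in NS_PI and at 5.16, 25.0, 6.42, 0.762 and 2.04 CPM in S_PI. Animal 5 went up with vehicle and animal 2 went up with inhibitor, and several libraries lay near the floor of 3 counts. The log2 changes were -1.97 ± 0.63 (adjusted p = 0.0273) and -1.82 ± 0.65 (adjusted p = 0.0374). Without animal 1 they were -1.22 (adjusted p = 0.0684) and -0.39 (adjusted p = 0.581). The calls were also lost with DESeq2 (adjusted p = 0.0812 and 0.0521), without animal 3 or 4 in both (adjusted p = 0.0639 to 0.147), and without animal 5 with inhibitor (adjusted p = 0.062).

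Lmna was the only listed gene called higher in both comparisons. Flna, Capg and Arpc2 were also higher in 5 of 5 animals in both, but each was called in only 1. Lmna encodes lamin A/C of the nuclear envelope, which is coupled to actin through the LINC complex. It stood at 191, 189, 205, 236 and 220 CPM in NS and at 293, 230, 383, 367 and 293 CPM in S, and at 189, 184, 235, 201 and 264 CPM in NS_PI and at 418, 248, 397, 315 and 422 CPM in S_PI. All 5 animals were higher each time, and the groups overlapped only through animal 2, whose stretched libraries were the lowest. Lmna rose by 0.57 ± 0.14 (adjusted p = 0.00485) and by 0.74 ± 0.14 (adjusted p = 0.000417), and the calls held under all 14 alternatives tried.

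Vim rose in some animals and not in others. It stood at 3323, 1762, 1477, 1382 and 1484 CPM in NS and at 7291, 1088, 1526, 2338 and 2864 CPM in S, and at 2131, 1150, 1193, 1523 and 1231 CPM in NS_PI and at 7038, 1070, 1740, 2728 and 2526 CPM in S_PI. Animal 2 was lower in both comparisons. The log2 change was 0.44 ± 0.23 with vehicle (adjusted p = 0.171, or 0.0154 without animal 2). With inhibitor Vim rose by 0.81 ± 0.23 (adjusted p = 0.0112, or 0.0579 without animal 5).

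**Figure D3:**
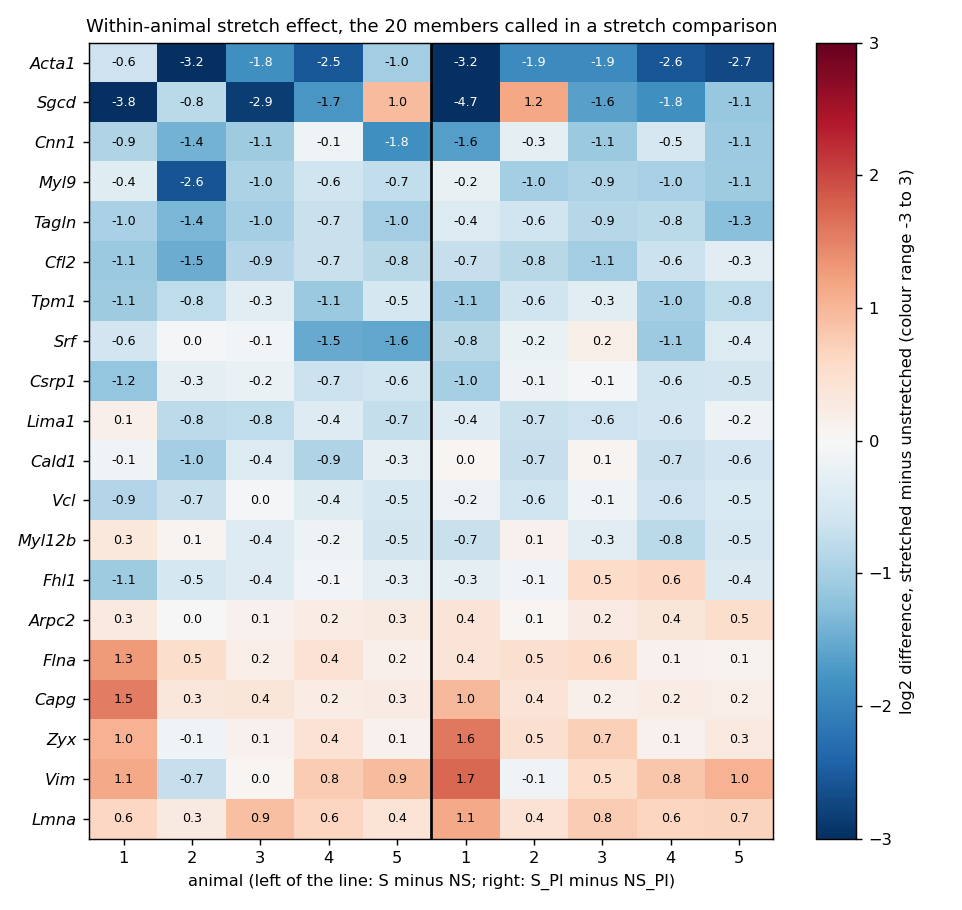
Within-animal log2 differences, stretched minus unstretched, of the 20 genes called in at least 1 stretch comparison (rows), for each of 5 animals with vehicle (left of the line) and with inhibitor (right); colours run from -3 to 3. Acta1, Cnn1, Myl9, Tagln, Cfl2, Tpm1, Vcl and Csrp1 are negative in all 10 columns. Lmna, Flna, Capg and Arpc2 are positive in all 10, while Srf, Sgcd, Fhl1 and Vim vary with the animal.

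Within a library, ratios of related genes do not depend on the scaling, so 8 pairs of a muscle-type and a broadly expressed relative were set side by side. These are means ± SD of 5 within-animal differences, with no test. The log2 ratio of Acta1 to Actb changed by -2.08 ± 1.13 with vehicle and by -2.58 ± 0.29 with inhibitor, and it was lower in 5 of 5 animals in both. Ratios of Tagln to Tagln2 (-1.15 ± 0.57 and -0.86 ± 0.26), Myl9 to Myl12a (-1.13 ± 0.86 and -0.78 ± 0.25) and Cfl2 to Cfl1 (-1.38 ± 0.76 and -0.89 ± 0.48) were also lower in every animal. Cnn1 to Cnn3 was lower in 4 of 5 animals (-0.90 ± 0.74) and in 5 of 5 (-0.79 ± 0.63). The first genes of these pairs were called lower in the same libraries above, so the ratios are not independent of those calls. The other 3 pairs, whose first genes were not called, did not follow the direction of these ratios. Tpm2 to Tpm4 was higher in all 5 animals in both comparisons (0.66 ± 0.75 and 0.33 ± 0.36), and Acta2 to Actb (0.24 ± 0.80 and -0.01 ± 0.39) and Flnc to Flna (-0.11 ± 0.98 and 0.12 ± 0.90) moved both ways.

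**Figure D4:**
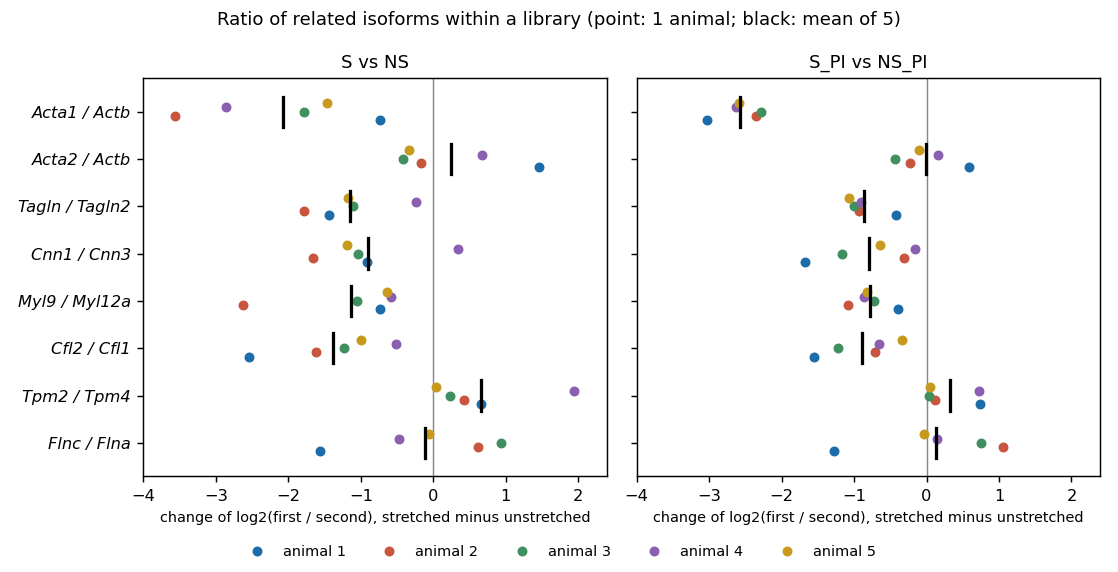
Change of the log2 ratio of a muscle-type to a broadly expressed relative within a library (x axis, stretched minus unstretched) for 8 pairs, with 1 point per animal and black bars for the mean of 5. The points of Acta1/Actb, Tagln/Tagln2, Myl9/Myl12a and Cfl2/Cfl1 all lie left of 0 in both panels, and those of Tpm2/Tpm4 all lie right of it.

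The 2 stretch comparisons used different libraries of the same animals. They shared 11 called genes, of 16 called with vehicle and 15 called with inhibitor. The matching overlap over all genes tested was not counted, so this overlap cannot be called a trait of the listed genes. Of these 11, 10 fell in both (Acta1, Tagln, Tpm1, Cnn1, Lima1, Myl9, Vcl, Csrp1, Cfl2 and Sgcd) and Lmna rose in both. Srf, Cald1, Flna, Fhl1 and Capg were called only with vehicle and Myl12b, Zyx, Arpc2 and Vim only with inhibitor. The interaction was called for none of the 48 genes by edgeR (smallest adjusted p = 0.984), so these calls were not shown to differ between the comparisons. Their interaction estimates ran from -0.79 ± 0.45 for Acta1 to 0.63 ± 0.29 for Fhl1, and that of Acta1 was 0.10 without animal 1. The median SE of an interaction was 0.23 on the log2 scale, against 0.16 for a stretch effect.

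The inhibitor alone changed no listed gene past the threshold. In NS_PI vs NS, edgeR called 0% of all genes tested and none of the 48 (smallest adjusted p = 0.868), and 4 of the 48 had an unadjusted p below 0.05, as did 455 of all 8320. In S_PI vs S it also called 0% of all genes and none of the 48 (smallest adjusted p = 0.999), with 4 of the 48 and 340 of all genes at an unadjusted p below 0.05. For the interaction, which called 0% of all genes, 1 of the 48 and 345 of all genes lay below 0.05 unadjusted. DESeq2 called 5 genes in NS_PI vs NS and 0 in each of the others, and none of the 48. Acta1 had the lowest estimate in S_PI vs S, at -1.19, and Fhl1 in NS_PI vs NS, at -0.47, while Tpm2 had the highest in both, at 0.41 and 0.45.

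Other genes of the pathway were taken from lists that hold none of the 56. Of 19 tested further MRTF-SRF targets, 3 fell and 2 rose in S vs NS, and 3 fell and 3 rose in S_PI vs NS_PI (median log2 change 0.08 and 0.28), where 24.9% and 30.5% of all genes tested were called. Ankrd1, a strain-responsive muscle ankyrin-repeat protein, fell in all 5 animals each time, with log2 changes of -2.93 ± 0.27 (adjusted p = 3.76e-07) and -3.16 ± 0.27 (adjusted p = 1.22e-07). Cyr61, a secreted matricellular protein that YAP also drives, fell by 1.47 ± 0.19 and by 1.62 ± 0.19, and the adhesion adaptor gene Fblim1 by 0.78 ± 0.18 and by 0.86 ± 0.19. Epha2, an ephrin receptor, rose by 1.24 ± 0.39 and by 1.08 ± 0.39.

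Among known targets of the ternary complex factors, more genes rose than fell. Of 13 tested immediate-early targets, 6 rose and 1 fell in S vs NS, and 7 rose and 1 fell in S_PI vs NS_PI (median 0.54 and 0.58). Over all genes tested, 12.5% rose and 12.4% fell in S vs NS, and 15.2% rose and 15.3% fell in S_PI vs NS_PI. Fos, Fosb and Fosl1, which encode subunits of AP-1, rose by 1.13 ± 0.28, 3.56 ± 0.59 and 2.44 ± 0.30 with vehicle, and by 1.59 ± 0.29, 3.83 ± 0.62 and 3.77 ± 0.37 with inhibitor. The antiproliferative gene Btg2 fell by 0.61 ± 0.17 and by 0.48 ± 0.17. The difference between the MRTF and the ternary complex lists was not tested.

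Of 36 tested assembly, Arp2/3 and capping genes, 5 and 6 rose and 3 fell in each comparison (median 0.08 and 0.12), shares no higher than those over all genes (24.9% and 30.5%). Dstn, the destrin member of the cofilin family, and Pls3, a bundling plastin, were among those that fell, by 0.39 ± 0.13 and 0.83 ± 0.18 in S vs NS. Tmod3, which caps the slow-growing filament end, rose by 0.47 ± 0.12 and by 0.46 ± 0.12. Of 22 focal adhesion genes, 2 rose and 3 fell in S vs NS, and 3 rose and 2 fell in S_PI vs NS_PI, against the same 24.9% and 30.5%. Nedd9, an integrin scaffold, fell by 0.53 ± 0.12 and by 0.56 ± 0.12.

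Markers of cell types moved with stretch in the same libraries. The summed level of 6 epithelial markers was 10038 to 11704 CPM in NS, 3408 to 12869 CPM in S, 7513 to 12393 CPM in NS_PI and 2527 to 11274 CPM in S_PI. In animals 1, 4 and 5 this sum changed by -1.56, -1.25 and -1.16 on the log2 scale with vehicle, and in animals 2 and 3 by 0.34 and 0.04. With inhibitor the values in animals 1 to 5 were -2.29, 0.05, 0.36, -1.12 and -0.84. The animals with a lower epithelial sum were those in which Srf was lower by 0.58 to 1.56 and Vim was higher by 0.76 to 1.13 on the log2 scale with vehicle. Of the 6 genes, 1 fell with vehicle (Krt8) and 3 with inhibitor (Krt8, Krt18 and Epcam), where 12.4% and 15.3% of all genes tested fell. In these bulk libraries, fewer cells of a type and less RNA per cell cannot be told apart.

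The summed level of 15 fibroblast and smooth muscle markers, which held none of the 56 genes, was 3333 to 7518 CPM in NS, 3906 to 12876 CPM in S, 3254 to 10084 CPM in NS_PI and 3900 to 13800 CPM in S_PI. It was higher in 5 of 5 animals in both comparisons, by 0.08 to 1.11 and by 0.26 to 1.21 on the log2 scale. Acta1, Tagln, Cnn1 and Myl9 were lower in the same 5 animals. Of the 9 tested fibroblast and smooth muscle markers, 1 rose with vehicle (Col1a1), and with inhibitor 4 rose (Col1a1, Dcn, Des and Mgp) and 1 fell (Pdgfrb). Over all genes tested, 12.5% rose with vehicle, and 15.2% rose and 15.3% fell with inhibitor. Among the defining markers Col3a1 lay at 234 to 1138 CPM and Col1a2 at 0 to 5.34 CPM, against 2201 to 11630 CPM for Col1a1. The sum thus leans on Col1a1 far more than on the other defining markers. The 15 leukocyte markers summed to 840 to 2977 CPM in NS, 1200 to 3886 CPM in S, 880 to 2444 CPM in NS_PI and 1520 to 3475 CPM in S_PI, higher in 5 of 5 animals in both. Of the 13 tested, 4 rose with vehicle and 7 with inhibitor, against 12.5% and 15.2% of all genes tested, and none fell. The 15 type I markers summed to 2204 to 8419 CPM in NS, 1563 to 7616 CPM in S, 2314 to 8076 CPM in NS_PI and 1524 to 7164 CPM in S_PI, lower in 4 of 5 animals in both. Of the 12 tested, 4 fell with vehicle and 6 with inhibitor, against 12.4% and 15.3% of all genes tested. Vegfa rose in both comparisons and Cav1 rose with inhibitor. The 9 type II markers were lower in 3 of 5 animals in both, with sums of 311 to 759 CPM in NS, 292 to 743 CPM in S, 299.1 to 672 CPM in NS_PI and 220.0 to 658 CPM in S_PI. The 2 mesothelial markers found summed to 124 to 250.1 CPM in NS, 142 to 881 CPM in S, 130 to 290 CPM in NS_PI and 148 to 477 CPM in S_PI. They were higher in 5 of 5 animals with vehicle and in 4 of 5 with inhibitor. With vehicle the differences were 1.82 in animal 1 and 0.18 to 0.36 in the others on the log2 scale. This sum leaned on Msln, which rose with vehicle. Wt1, the other marker, was not called. It stood at 87.23, 32.07, 32.25, 15.91 and 15.19 CPM in NS and at 75.94, 12.85, 12.98, 16.27 and 15.45 CPM in S. In animals 2 and 3 the epithelial sum was not lower, and Tagln, Tpm1, Acta1 and Cfl2 were lower in both comparisons. With vehicle, the leukocyte sum was higher by 0.60 and 0.41 in these animals and the fibroblast and smooth muscle sum by 0.23 and 0.08. The part of these markers in the other results was not tested.

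**Figure D5:**
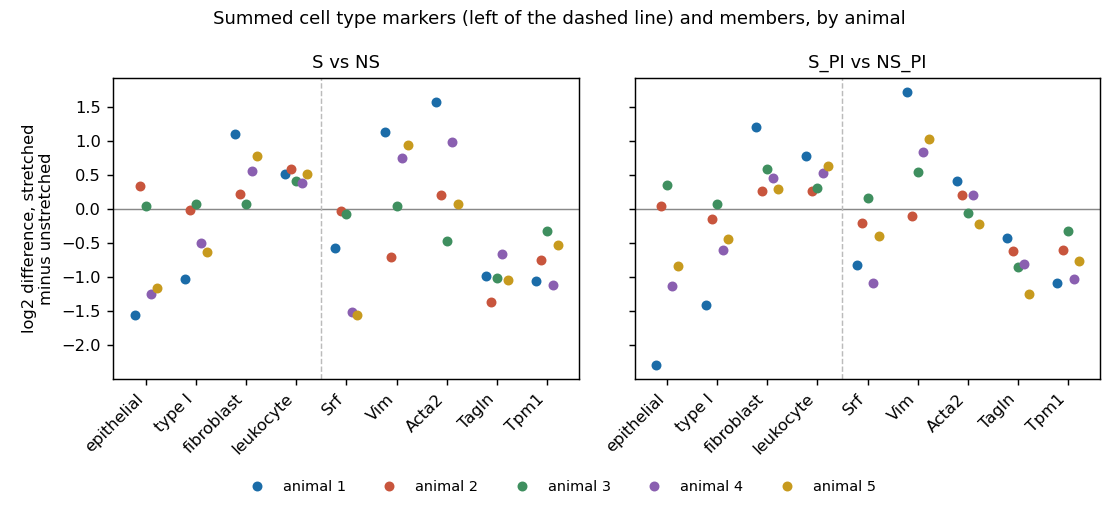
Log2 difference, stretched minus unstretched, of summed epithelial, type I, fibroblast and leukocyte markers (left of the dashed line) and of 5 listed genes, by animal, with vehicle and with inhibitor. Animals 1, 4 and 5 have the lowest differences of the epithelial sum, and Tagln and Tpm1 lie below 0 in all 5 animals in both panels.

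In the authors' deposited table all 48 genes had an adjusted p-value, and for 8 of them it lay below 0.05. These 8 were Acta1, Cfl2, Cnn1, Csrp1, Lmna, Myl9, Tagln and Tpm1, and all 8 were also called in S vs NS. The table's header does not name its groups or direction, and its log2 values for these 8 genes had the opposite sign to stretched over unstretched. Srf, Cald1, Lima1, Flna, Vcl, Fhl1, Capg and Sgcd were called in S vs NS but did not pass there (DESeq2 adjusted p = 0.0538 to 0.273).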

How the data were processed

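Per the submitters' processing notes, the authors used STAR, HTSeq and build rn6. The versions and the gene annotation were not stated. They deposited raw counts per symbol and a DESeq2 table of log2 fold changes and adjusted p-values, per the file headers. The counts were tested as deposited, with the HTSeq summary entries left out. Genes were filtered with filterByExpr, scaled by TMM and tested with the quasi-likelihood F test of edgeR 4.0.16 (R 4.3.3), with group and animal in 1 fit to all 20 libraries and 12 residual degrees of freedom. A Benjamini-Hochberg adjusted p below 0.05 over all genes was a call. Within-animal log2 differences used a prior count of 1. The animal numbers paired the libraries: deviations from group means correlated with a median r of 0.47 (lowest 0.32) within an animal and -0.17 between animals. With the animal in the model, differences in level between animals are removed. The p-values thus set a mean change against the spread that remains, pooled over the 4 groups. That spread holds uneven responses of the animals, as numbered, and counting error. The code was tested on simulated counts. Alternatives were DESeq2 1.42.0, voom of limma 3.58.1, other scalings and filters, no animal block, the compared groups alone, and leaving out each animal. All listed genes were accounted for. Library values were printed for the 12 with the largest called change and for 10 chosen by function, which include Srf, Acta2, Actb, Actg1, Flna and Vim. The result of 1 further list is not reported here. The genes and lists were chosen with earlier results of these data known. Figures used matplotlib 3.10.9.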

Additional observations from a re-analysis of the deposited data

Results flagged for a closer look

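Within-animal log2 differences of 23 genes were examined in both stretch comparisons, 46 sets of 5 animals in all, and in 4 sets 1 animal stood far from the other 4 relative to the range. Chance gives about 1 in 20 such sets. Myl9 changed by -2.59 in animal 2 in S vs NS, where the other animals ranged from -0.96 to -0.37. In S_PI vs NS_PI, animal 1 stood apart for Myl9 at -0.23, with the others between -1.08 and -0.93. Capg changed by 1.54 in animal 1 in S vs NS, against 0.22 to 0.35 in the others. The same animal stood apart for Capg in S_PI vs NS_PI, at 0.97 against 0.15 to 0.38.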

How the results depend on the processing

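Of 644 values of the 23 genes named in the stretch comparisons under 14 alternatives, 540 kept their direction and side of the threshold, 86 lost a call, 9 gained one and 9 changed sign, and the cause was not tested. Calls of Tpm1 and Lmna held under all 14 alternatives in both comparisons. Without the replicate block, edgeR called 818 genes in S vs NS (1 listed gene higher, 3 lower) and 1229 in S_PI vs NS_PI (1 higher, 1 lower). With the block but only the compared groups, it called 1048 genes in S vs NS (1 listed gene higher, 7 lower) and 27 in NS_PI vs NS. NS_PI vs NS gave 4 genes with no filter, 5 with DESeq2, 2 with limma-voom and 0 to 3 without 1 animal. Leaving out 1 animal gave 2 to 4 listed genes higher and 6 to 10 lower in S_PI vs NS_PI. Myl12b in S vs NS ranged from -0.23 to 0.00101 without 1 animal. Fhl1 in S_PI vs NS_PI was -0.0727 with upper-quartile scaling, -0.10 with library size, -0.0203 with no filter, -0.00695 with the filter at 10 CPM, -0.0237 with limma-voom, -0.0753 without the replicate block and -0.13 to 0.12 without 1 animal. The interaction of Acta1 was -1.37 to 0.10 without 1 animal. Depth limits genes near 3 counts, such as Sgcd.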
